A study of Mus musculus with 2 samples.

Results

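The replication-dependent histone genes of the mouse were described on 2 single-colour Agilent expression arrays, 1 hybridised with RNA of mouse cells given the agent S180 and 1 with RNA of mouse cells given DMSO. The genes were taken by name: every target whose name in the scanner tables began with Hist1h, Hist2h, Hist3h or Hist4h counted as a member, which gave 56 genes of 37072 named targets. Of these, 48 were measured, among 20782 measured genes in all, because at least 1 of their probes was well above background on both arrays by the scanner software's flag. The labels give no cell type, dose, time or genotype, and do not say what S180 is; DMSO is the usual solvent vehicle. With 1 array per group there is no replicate to check a difference against, and no test was made.

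Histones package DNA into nucleosomes: a core of H2a, H2b, H3 and H4 carries the DNA and the linker histone H1 binds where it enters and leaves. The replication-dependent genes sit in clusters of many near-identical copies and are transcribed mainly in S phase, when newly made DNA must be packaged. Their messenger RNAs end in a conserved stem-loop bound by the protein Slbp rather than in a poly(A) tail, and this end couples their stability to DNA synthesis. Replacement histones, by contrast, come for the most part from single polyadenylated genes, many of them active throughout the cell cycle.

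The probes read these copies to different degrees, and the H2a probes show it most plainly. Of the 60-base probes that represent the 15 measured H2a genes, 6 held the same run of 29 bases, shown in capitals below in 4 of them, 5′ to 3′ on the coding strand. Positions are on build mm9, as the files give them: the Hist1h2af probe at chr13:23626113-23626172 on the plus strand, the Hist1h2ah probe at chr13:22127035-22127094 on the minus strand, the Hist1h2aa probe at chr13:24026659-24026718 on the plus strand, and the Hist2h2ac probe at chr3:96024378-96024437 on the minus strand. The Hist2h2ab probe, at chr3:96024171-96024230 on the plus strand, lacks that run and is given for contrast.
Hist1h2af: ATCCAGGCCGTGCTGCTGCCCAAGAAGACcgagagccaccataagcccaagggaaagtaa
Hist1h2ah: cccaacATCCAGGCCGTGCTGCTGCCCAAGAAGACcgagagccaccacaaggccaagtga
Hist1h2aa: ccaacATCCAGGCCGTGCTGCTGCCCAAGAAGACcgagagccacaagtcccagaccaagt
Hist2h2ac: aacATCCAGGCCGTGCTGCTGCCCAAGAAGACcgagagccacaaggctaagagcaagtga
Hist2h2ab: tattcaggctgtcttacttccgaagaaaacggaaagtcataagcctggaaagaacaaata

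Runs of at least 20 identical bases linked the probes of 10 H2a genes, the longest being 45 bases between Hist1h2aa and Hist2h2ac. The probes of 3 H2b genes shared up to 21 bases and those of 2 H4 genes 20 bases, while no H1 probe and no H3 probe shared such a run with another of its class. Across classes, the H3 probe of Hist1h3a shared 23 bases with that of Hist1h2bf and 21 with that of Hist2h2bb. These probes, and that of Hist3h2ba among the 3 H2b genes, hold letters of the stem-loop described below. The H2a signals of these 10 genes therefore cannot be assigned to single genes. Each value below is that of the probe named for the gene, and how far the probe reads the others' transcripts was not tested. The same holds for the replacement gene H2afj, whose probe shared 38 bases with that of Hist2h2aa2.

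The linker histone probes shown next shared no run of 20 bases with each other. Probes were compared only with probes and not with transcripts, so this cannot show that a probe reads its own gene alone. H1 values are given gene by gene, under the name of the probe. The Hist1h1a probe lies at chr13:23855888-23855947 and the Hist1h1d probe at chr13:23647452-23647511, both on the plus strand, and the Hist1h1e probe at chr13:23713707-23713766 on the minus strand (mm9). Probes of 3 H4 genes follow, from 3 clusters: Hist1h4k at chr13:21842063-21842122, Hist2h4 at chr3:96066953-96067012 and Hist4h4 at chr6:136752717-136752776, all on the minus strand.
Hist1h1a: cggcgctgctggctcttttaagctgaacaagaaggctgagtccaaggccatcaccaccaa
Hist1h1d: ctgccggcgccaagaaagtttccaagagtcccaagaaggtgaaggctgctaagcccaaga
Hist1h1e: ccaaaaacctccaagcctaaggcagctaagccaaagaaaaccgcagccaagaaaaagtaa
Hist1h4k: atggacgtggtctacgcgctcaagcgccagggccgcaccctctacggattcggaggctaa
Hist2h4: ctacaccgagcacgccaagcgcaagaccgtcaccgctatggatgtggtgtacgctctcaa
Hist4h4: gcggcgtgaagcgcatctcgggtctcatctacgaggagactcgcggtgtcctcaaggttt

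A few probes reached the stem-loop itself. The stem-loop, read from the probes as the most frequent run of 16 letters with a 6-base stem and a 4-base loop, occurred whole in 4 of the 68 member probes and in 1 other probe among the 56602 probes searched. The stretches around them are shown with the stem-loop letters in capitals, for Hist1h3a at chr13:23853756-23853780 and Hist1h2bf at chr13:23665629-23665655, both on the minus strand, and for Hist2h2bb at chr3:96074088-96074115 on the plus strand (mm9). One probe of Hist1h1c ended inside the stem-loop, at chr13:23831375-23831389 on the plus strand.
Hist1h3a: accaaaGGCTCTTTTCAGAGCCaca
Hist1h2bf: cccaaaGGCTCTTTTCAGAGCCaccta
Hist2h2bb: ccaaaaGGCTCTTTTCAGAGCCacttta
Hist1h1c: ccaaaaGGCTCTTTT

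Signals are background-subtracted intensities as the scanner software wrote them. The 75th percentile of the signal was 615 with S180 and 748 with DMSO, so raw signals run lower on the S180 array for most genes. Levels are therefore log2 signals minus the array's own 75th percentile, and a difference is the S180 level minus the DMSO level. The median difference of all measured genes was 0.00 and their SD 0.29. Spots well above background made up 61.9% of 59305 spots with S180 and 60.6% of 59305 spots with DMSO, no spot was saturated, and no member spot carried an outlier flag. As a gauge of array error, probes printed in 10 spots gave an SD for the difference between single spots of 0.042 in the brightest, 0.073 in the middle and 0.268 in the dimmest of 3 equally sized groups of genes, from 262, 6 and 11 such probes. This error covers the array only, not the cells, the RNA or the labelling. A difference from the median gene of over 2 SD of the gene's own brightness group is called beyond spot error below.

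Most of the replication-dependent histone genes had lower levels on the S180 array than on the DMSO array, by small amounts, and the size differed by class. Their median difference was -0.19, or 1.14-fold lower, with a range from -1.43 to 0.36. Below the median gene lay 36 of 48 members, against 50% of all measured genes by construction. Lower by at least 20% were 16 members, against 8.04% of all measured genes, and higher by at least 25% were 2, against 11.6%. At least 1.5-fold lower were 5 members (1.71% of all measured genes), at least 2-fold lower 1 (0.168%), at least 1.5-fold higher 0 (3.08%) and at least 2-fold higher 0 (0.582%). Beyond spot error, 27 members were lower (20.6% of all measured genes) and 6 higher (20.4%). All these counts take each named probe as a gene of its own. The signals of 10 H2a genes cannot be assigned to single genes, so their values may in part repeat one another. In bulk RNA, fewer cells that express a gene and less RNA per cell cannot be told apart.

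By brightness group, 18 of 24 bright, 10 of 12 middle and 8 of 12 dim members lay below the median gene. Counts beyond spot error cannot be compared between the groups, because the cutoff was 0.084, 0.145 and 0.536 in that order. The shares of all measured genes set beside such counts are over all groups together, and no share was taken by group. Of the 48 measured members, 24 were bright. The 24 members in the brightest group had a median difference of -0.18, with 17 lower and 6 higher beyond spot error. The 12 members in the middle group had a median of -0.39, with 8 lower beyond spot error. The 12 dim members had a median of -0.16, and 2 of them were lower beyond spot error. The plot of levels by gene shows how the members spread over the range of signal.

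**Figure D1:**
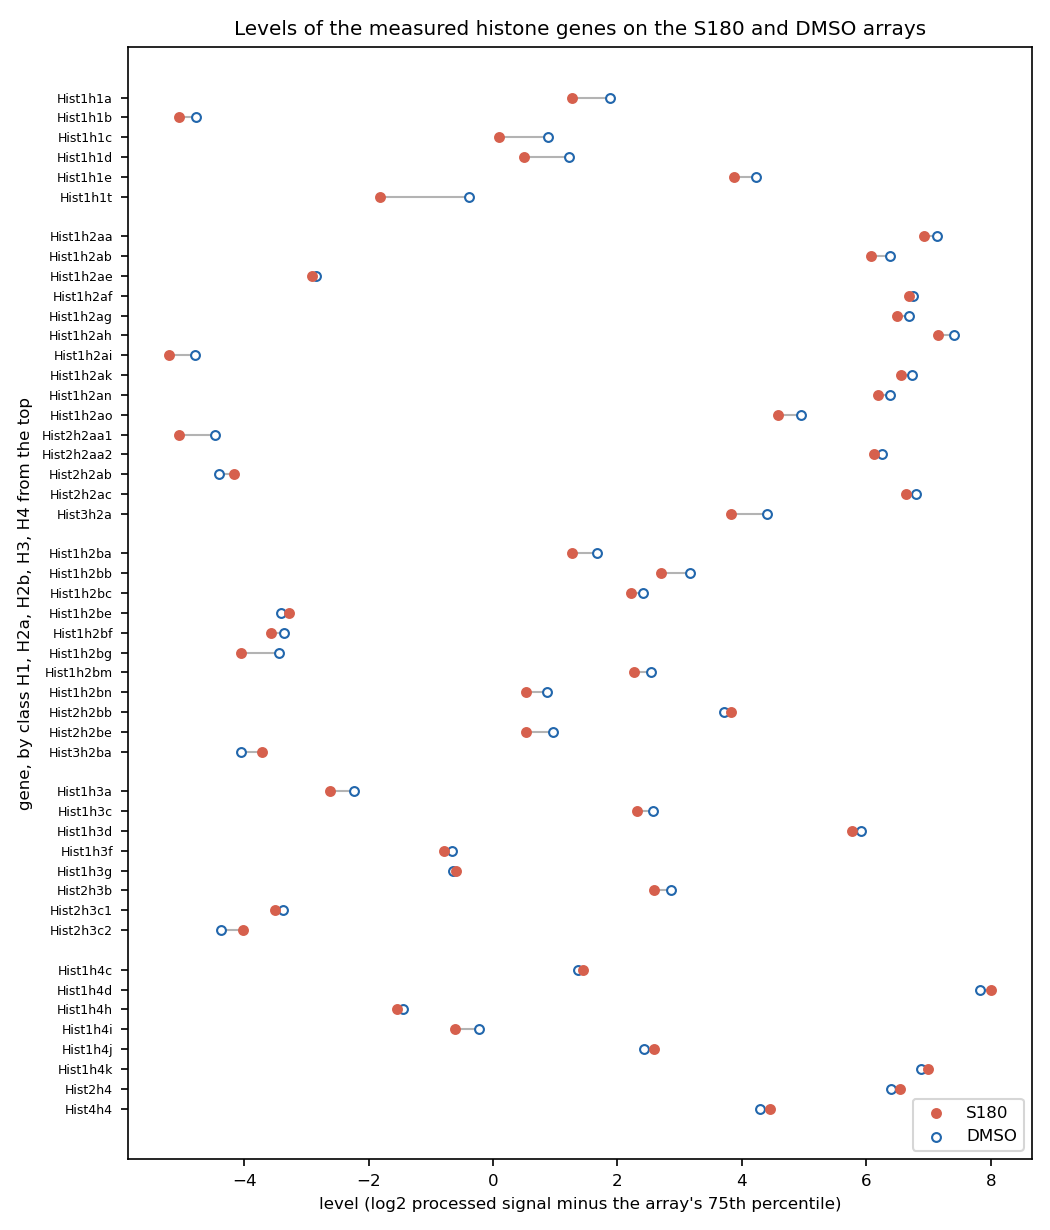
Levels of the 48 measured histone genes, as log2 processed signal minus the array's 75th percentile (horizontal axis), with 1 row per gene grouped by class from H1 at the top to H4 at the bottom. Filled points are the S180 array and open points the DMSO array. The filled point lies left of the open one in all 6 H1 rows and in 14 of 15 H2a rows, and right of it in 6 of 8 H4 rows, an H4 order that turns round without scaling or with spike-in scaling.

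The linker histone genes had the lowest differences of the 5 classes. All 6 H1 genes listed were measured and all 6 were lower, with a median difference of -0.67, or 1.59-fold lower. Beyond spot error, 5 of them were lower (20.6% of all measured genes), and 4 were at least 1.5-fold lower (1.71%). Their range ran from -1.43 to -0.27.

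Hist1h1t, the linker histone known from spermatocytes, had a signal of 174 with S180 and 569 with DMSO. On the scaled log2 axis its levels were -1.83 with S180 and -0.39 with DMSO, a difference of -1.43. It was the only member at least 2-fold lower. Hist1h1c, a somatic linker histone, had signals of 659.9 with S180 and 1377 with DMSO, a difference of -0.78. Its other measured probe, the one ending at the stem-loop, differed by -0.46, and the brighter probe began 629 bases further along the genome in the 3′ direction. The brighter probe thus lies past the stem-loop, and which transcript it reads was not tested. Both Hist1h1c probes were lower on the S180 array, by unequal amounts, and the probe ending at the stem-loop was 1.37-fold lower, short of 1.5-fold. Hist1h1d, another somatic linker histone, gave 873 with S180 and 1748 with DMSO, a difference of -0.72. Hist1h1a, likewise somatic, gave 1488 with S180 and 2763 with DMSO, a difference of -0.61. These 4 genes were all in the middle brightness group.

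Hist1h1e, the brightest H1 gene, had signals of 8976 with S180 and 14030 with DMSO, levels of 3.87 with S180 and 4.23 with DMSO, and a difference of -0.36. Its difference was smaller than those of the 4 genes above. Hist1h1b was dim, at 18.6 with S180 and 27.2 with DMSO, and its difference of -0.27 lay within spot error. Leaving out the spermatocyte gene Hist1h1t, the H1 median stood at -0.62 relative to the median gene, against -0.67 with it.

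The core histone class H2a was lower by less and more evenly. Of 18 H2a genes listed, 15 were measured, and 14 of them lay below the median gene, 11 beyond spot error (20.6% of all measured genes). Bright, with the smallest cutoff, were 10 of those 11. The median difference was -0.19 and the range -0.57 to 0.24. None was 1.5-fold lower. The brightest member, Hist1h2ah, had signals of 87228 with S180 and 127853 with DMSO, a difference of -0.27. The probes named for Hist1h2aa, Hist2h2ac and Hist1h2af, which share the run printed above, differed by -0.21, -0.16 and -0.06. The 10 genes whose probes share at least 20 bases had a median of -0.19 and a range of -0.43 to -0.06. The 5 other H2a genes had a median of -0.29 and a wider range, -0.57 to 0.24.

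Hist3h2a had the lowest difference of the bright H2a genes, with signals of 8769.9 with S180 and 15820 with DMSO and a difference of -0.57. Its second measured probe differed by -0.03, so its 2 probes gave unequal values. Hist2h2aa1 was dim at 18.6 with S180 and 33.7 with DMSO, a difference of -0.57 that lay just beyond spot error. Hist1h2ai was dim at 16.6 with S180 and 27.0 with DMSO, with a difference of -0.43 within spot error. At the other end, Hist2h2ab, at 34.5 with S180 and 35.4 with DMSO, differed by 0.24, also within spot error. The remaining bright H2a genes, Hist1h2ao, Hist1h2ab, Hist1h2an, Hist1h2ag, Hist1h2ak and Hist2h2aa2, ran from -0.37 in Hist1h2ao to -0.14 in Hist2h2aa2, all beyond spot error.

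H2b, the partner of H2a in the nucleosome core, was lower in most members but not in all. Of 14 genes listed, 11 were measured, with a median difference of -0.28 and a range of -0.61 to 0.35. Beyond spot error, 7 were lower (20.6% of all measured genes) and 1 was higher (20.4%). Hist1h2bg gave 37.1 with S180 and 68.9 with DMSO, a difference of -0.61 and the lowest of the class. Hist1h2bb gave 3977 with S180 and 6677 with DMSO, a difference of -0.47. A second, dim probe of Hist1h2bb differed by 0.05, which made it the one member of 7 with 2 measured probes whose probes fell on different sides of the median gene. Hist2h2be, at 893 with S180 and 1464 with DMSO, differed by -0.43, and its second probe by -0.50.

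The H2b gene that differed upward beyond spot error was the brightest of the class. Hist2h2bb, whose probe contains the stem-loop, had signals of 8717 with S180 and 9802 with DMSO, and a difference of 0.11. Hist1h2be differed by 0.12 and Hist3h2ba by 0.35, both dim and within spot error. Hist1h2ba, the H2b gene known from testis, had signals of 1488 with S180 and 2377 with DMSO and a difference of -0.40. With Hist1h1t and Hist1h2aa it makes up the 3 members known from testis, whose median was -0.40, although the Hist1h2aa signal cannot be assigned to that gene alone, its probe sharing 45 bases with that of Hist2h2ac. Of the rest, Hist1h2bn, Hist1h2bm and Hist1h2bc differed by -0.33, -0.28 and -0.18.

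H3 differed by little. Of 9 genes listed, 8 were measured, with a median difference of -0.14. Below the median gene lay 6, and 3 of those beyond spot error (20.6% of all measured genes). The brightest, Hist1h3d, had signals of 33754 with S180 and 45268 with DMSO, a difference of -0.14. Hist2h3b gave 3714 with S180 and 5453 with DMSO, a difference of -0.27. Hist1h3c gave 3059 with S180 and 4450 with DMSO, a difference of -0.26. These 3 bright genes were the ones lower beyond spot error. Hist1h3a was lower still by value, at 100.3 with S180 and 159 with DMSO with a difference of -0.38, but dim and within spot error. Hist2h3c2, at 37.9 with S180 and 35.9 with DMSO, had the highest difference of all members, 0.36, also within spot error. Its second probe, dim as well, differed by 0.51, within spot error. Hist1h3g differed by 0.04.

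H4 was the class that did not lie lower, though its direction depends on the scaling. Of 9 genes listed, 8 were measured, and 6 lay above the median gene. Higher beyond spot error were 5 of these 6, against 20.4% of all measured genes. Those 5 are bright, and many bright genes were higher. Among 915 measured genes with a mean level of at least 6, 626 were higher and 34 lower beyond spot error. The H4 median difference was 0.14 with 75th-percentile scaling, against -0.22 with spike-in scaling and -0.15 without scaling. Those last 2 scalings moved the median of all measured genes by -0.35 and -0.28. Relative to that median the H4 class stood at 0.13 under all 3, a value that a shift of a whole array cannot change. With quantile normalization and in the authors' deposited log2 values the H4 median was 0.00 in both cases. Medians of the other 4 classes were below 0 under every setting tried.

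Hist1h4d was printed in 10 spots on each array and so carries its own spot error. Its spots had signals from 154387 to 161320 with a median of 158058 on the S180 array, and from 165972 to 173961 with a median of 170158.5 on the DMSO array. After scaling, levels were 8.00 ± 0.02 with S180 and 7.83 ± 0.02 with DMSO (SD over 10 spots), a difference of 0.17. The scaled ranges, 7.97 to 8.03 with S180 and 7.79 to 7.86 with DMSO, did not overlap, and the raw signals stood in the opposite order, so the direction rests on the scaling. Its second probe differed by 0.15.

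The probes of the other bright H4 genes gave values close to this. Those of Hist1h4d and Hist1h4k shared 20 bases. How far each H4 probe reads the transcripts of other H4 genes was not tested, so these values may in part repeat one another. Hist4h4, the single gene of its cluster, had signals of 13403 with S180 and 14671 with DMSO and a scaled difference of 0.15. Hist2h4 and Hist1h4j also differed by 0.15, and Hist1h4k by 0.12. The second probe of Hist1h4k, also bright, differed by 0.08, within spot error. The 5 bright H4 genes thus spanned 0.12 to 0.17 with 75th-percentile scaling, all of them lower with S180 in raw signal. Hist1h4i went against the class: its signals were 404 with S180 and 642 with DMSO, a difference of -0.39 beyond spot error. Hist1h4h, at 211 with S180 and 275 with DMSO, differed by -0.10, and Hist1h4c, at 1685 with S180 and 1924 with DMSO, by 0.09, both within spot error.

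**Figure D2:**
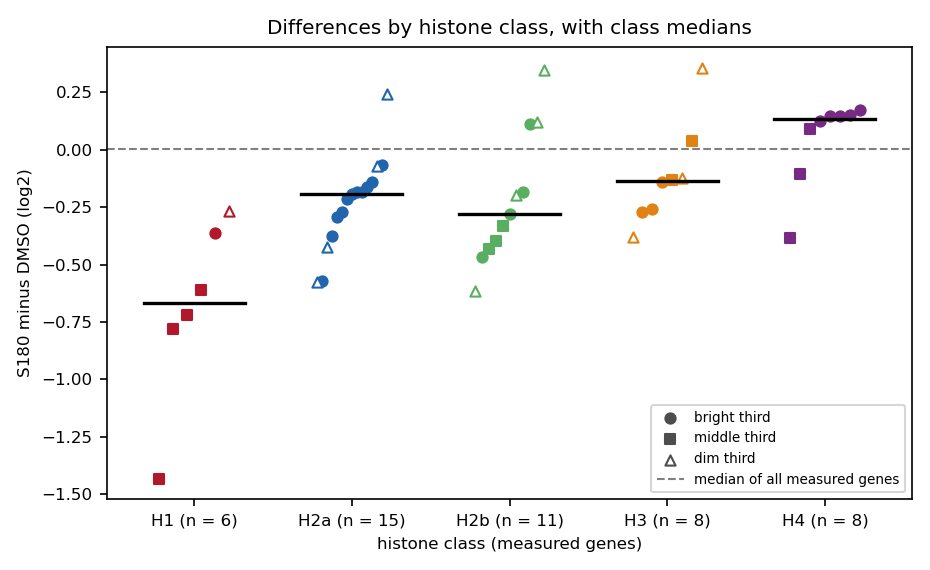
Difference, S180 minus DMSO on the log2 scale after 75th-percentile scaling (vertical axis), of each measured gene by histone class, with bars at the class medians and a dashed line at the median of all measured genes. Circles, squares and open triangles are the bright, middle and dim groups of measured genes. The class medians are -0.67 for H1, -0.19 for H2a, -0.28 for H2b, -0.14 for H3 and 0.14 for H4, the last of these below 0 with spike-in scaling or none.

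Brightness differed between the classes, many H2a and H4 probes being very bright. Among all measured genes with a mean level of at least 6, 915 in number, the median difference was 0.14; 811 lay above the median gene and 104 below. The 3 H4 genes at that level had a median of 0.15, close to the median of all genes so bright, and the part of brightness in the H4 values was not tested. The 9 H2a genes at that level had a median of -0.18 and a range of -0.29 to -0.06, and all 9 lay below the median gene. Within the brightest group of genes, class medians were -0.36 for the single H1 gene, -0.19 for 11 H2a genes, -0.23 for 4 H2b genes, -0.26 for 3 H3 genes and 0.15 for 5 H4 genes.

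**Figure D3:**
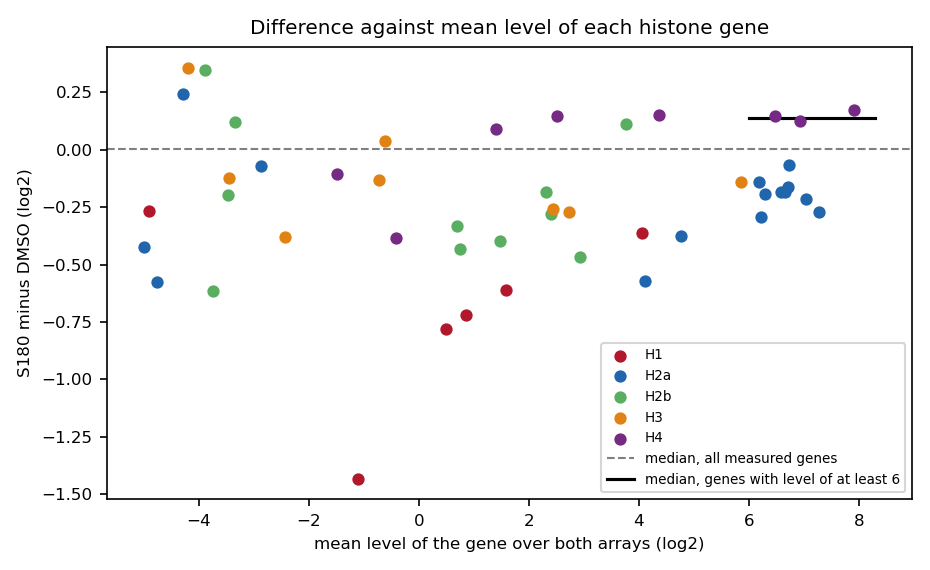
Difference, S180 minus DMSO on the log2 scale (vertical axis), against the mean level of each histone gene over both arrays, as log2 signal minus the 75th percentile (horizontal axis), coloured by class. The dashed line is the median of all measured genes and the short bar the median of genes with a level of at least 6, at 0.14. The 3 H4 genes there lie at that bar and the 9 H2a genes below the dashed line, as scaled to the 75th percentile.

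By cluster, Hist1 on chromosome 13 held most of the genes: 35 measured of 42 listed, with a median difference of -0.26, 29 below the median gene and all 5 genes that were at least 1.5-fold lower, namely Hist1h1t, Hist1h1c, Hist1h1d, Hist1h1a and the dim Hist1h2bg. Hist2 on chromosome 3 had all 10 of its genes measured, with a median of -0.13 and 6 below the median gene. Hist3 on chromosome 11 had 2 measured genes, Hist3h2a and Hist3h2ba, the second at 46.9 with S180 and 44.8 with DMSO. Hist4 on chromosome 6 had Hist4h4 alone.

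The clusters differ in which classes they hold, since all 6 H1 genes lie in Hist1. Within a class, H2a had medians of -0.20 in Hist1 (10 genes) and -0.15 in Hist2 (4 genes). H2b had medians of -0.30 in Hist1 (8 genes) and -0.16 in Hist2 (2 genes). H3 had medians of -0.14 in Hist1 (5 genes) and -0.12 in Hist2 (3 genes). H4 had a median of 0.11 in Hist1 (6 genes) and 0.15 for the 1 gene of Hist2, both scaled to the 75th percentile and both relying on that scaling for their sign. The order of the 4 core class medians was the same in both clusters.

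The probes of the measured Hist1 genes spanned 2.21 Mb with a gap of 1.49 Mb between the probes at 22133198 and 23622937 on chromosome 13 (mm9). Hist1h2ag was left out of this split, since the files place its probe in pieces over 59681 bases after the gap while its RefSeq start on GRCm38.p6 lies on the other side of the gap. The 11 genes before the gap had a median of -0.27 and the 23 genes after it -0.21. The H2a medians were -0.27 before the gap (5 genes) and -0.14 after it (4 genes). With Hist1h2ag counted before the gap the H2a median there was -0.23, and with it counted after the gap the median there was -0.18. For 31 of the other 34 genes a RefSeq start was at hand, and all 31 lay on the same side as their probe. Of the H1 genes, 5 lay after the gap, with a median of -0.72, and the dim Hist1h1b before it. Other targets between the first and the last of these probes had a median of -0.04 over 21 measured of 80, with 11 below the median gene and 10 above. Among these, Btn1a1, a butyrophilin gene, differed by 0.15, Hfe, the haemochromatosis gene, by -0.21 and the zinc finger gene Zfp184 by 0.30. These 3 were picked after their values were seen.

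**Figure D4:**
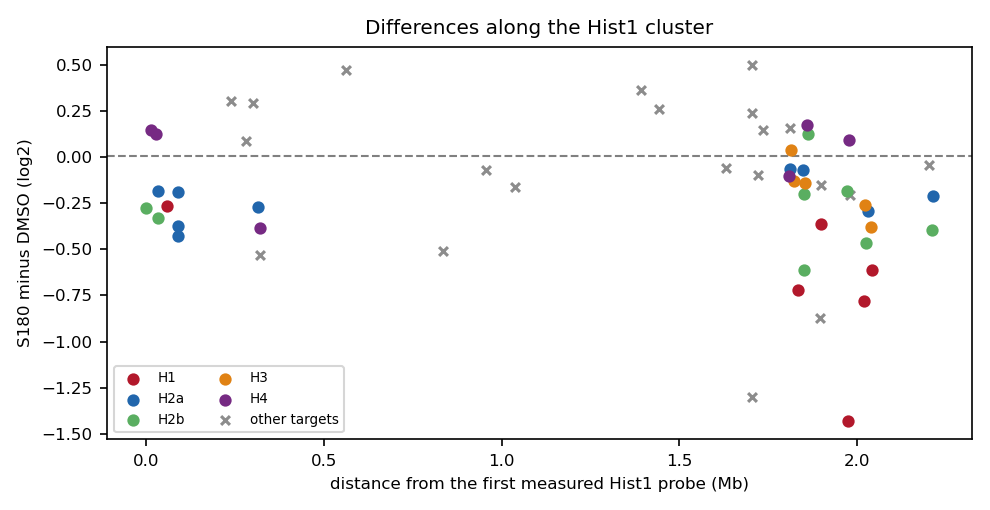
Difference, S180 minus DMSO on the log2 scale after 75th-percentile scaling (vertical axis), of 34 Hist1 genes, coloured by class and without Hist1h2ag, and of 21 other measured targets (grey crosses), against the distance from the first measured Hist1 probe in Mb (horizontal axis). The histone genes form a group on each side of the 1.49 Mb gap, with medians of -0.27 and -0.21, and the other targets lie on both sides of the dashed line at the median gene; the H4 points above that line stay above the median gene but have differences below 0 with spike-in scaling or none.

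The letters of the promoters were counted by class as well. RefSeq promoter windows of GRCm38.p6, 250 bases before to 50 after each start, were at hand for 43 of the 48 measured members. The motif CCAAT, searched on both strands, occurred in all 6 H1, 15 H2a, 9 H2b and 6 H3 windows and in 2 of 7 H4 windows, against 37.9% of 27025 windows of all genes. TATAAA occurred in 4 of 6 H1, 9 of 15 H2a, 6 of 9 H2b, 1 of 6 H3 and 4 of 7 H4 windows, against 14.2% of all. The letters AAACACA, the H1 box, occurred in 5 of 6 H1 windows, 2 of 15 H2a and 2 of 9 H2b windows, and in no H3 or H4 window, against 7.14% of all. The octamer ATTTGCAT occurred in 6 of 15 H2a and 5 of 9 H2b windows and in no other class, against 1.75% of all. Windows overlapped in 3 pairs of an H2a and an H2b gene, so those 6 genes share letters. A match describes the letters only.

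The 150 bases before the start are shown for 3 linker histone genes with low differences and for Hist1h4d, with matches to the motifs above, on either strand, in capitals. On GRCm38.p6 they are chr13:23763518-23763667 for Hist1h1a (now H1f1), chr13:23738657-23738806 for Hist1h1c (now H1f2), chr13:23554882-23555031 for Hist1h1d (now H1f3) and chr13:23581418-23581567 for Hist1h4d (now H4c4), all on the plus strand.
Hist1h1a: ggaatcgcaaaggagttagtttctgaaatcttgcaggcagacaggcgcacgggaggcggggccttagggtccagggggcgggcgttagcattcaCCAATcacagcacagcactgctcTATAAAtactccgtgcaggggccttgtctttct
Hist1h1c: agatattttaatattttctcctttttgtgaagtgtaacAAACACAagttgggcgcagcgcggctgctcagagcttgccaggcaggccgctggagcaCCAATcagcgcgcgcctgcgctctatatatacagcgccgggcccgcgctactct
Hist1h1d: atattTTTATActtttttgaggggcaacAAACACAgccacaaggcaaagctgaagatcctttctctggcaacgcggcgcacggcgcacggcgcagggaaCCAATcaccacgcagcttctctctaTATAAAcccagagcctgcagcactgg
Hist1h4d: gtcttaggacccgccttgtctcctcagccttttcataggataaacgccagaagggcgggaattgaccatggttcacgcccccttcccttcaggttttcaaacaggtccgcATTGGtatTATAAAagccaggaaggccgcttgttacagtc

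Linear amplification kits of this kind prime from a poly(A) tail, and how much tailless histone transcript entered the labelled RNA was not tested. Among core histone genes, 34 with a probe that starts within 540 bases of the target's start had a median difference of -0.18, and 8 with a probe further on had -0.15. The 3 measured core probes with the whole stem-loop start at 371 to 440 bases. Those of Hist2h2aa1, Hist2h2be, Hist1h2be, Hist2h3c1 and Hist2h3c2 start at 957 to 2534 bases and may lie past the stem-loop. Those of Hist1h2ae, Hist1h2bg and Hist1h2bc start at 542, 581 and 632 bases and may do so too. The Hist1h2ae probe begins with the end of the stem-loop. Which transcripts these read was not tested. The 7 measured members with stem-loop letters in the probe had a median of -0.20 and ranged from -0.43 to 0.35.

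Genes that make or use histones were set beside the members. The 11 replacement histones, all measured, had a median difference of -0.06. Beyond spot error, 4 were lower (20.6% of all measured genes) and 3 higher (20.4%). H1f0, the replacement linker histone of resting and differentiated cells, had signals of 239 with S180 and 573 with DMSO, a difference of -0.98. It was the only gene of the 4 lists described here at least 1.5-fold lower. Cenpa, the centromeric H3, had signals of 5568 with S180 and 8557 with DMSO, a difference of -0.34. H1fx, a further linker histone, had signals of 869 with S180 and 814 with DMSO, a difference of 0.38. Linker histones outside the clusters thus stood at both ends of the list. H2afz, an H2a variant found at promoters, differed by 0.18, H2afx, which is phosphorylated at DNA breaks, by -0.06, and the H3 replacement genes H3f3a and H3f3b by 0.03 and -0.09.

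The 18 genes of histone mRNA synthesis and processing were centred on the median gene, with a median of 0.00. Beyond spot error, 4 were lower (20.6% of all measured genes) and 2 higher (20.4%). Slbp, the stem-loop binding protein, had signals of 1832 with S180 and 2355 with DMSO, a difference of -0.08. Npat, the coactivator of histone gene transcription, differed by -0.01. Lsm11, a protein of the U7 particle that directs cleavage at the stem-loop, differed by 0.18, and Hinfp, a factor of H4 promoters, by 0.13. The lowest were Srrt, a partner of the cap-binding complex, at -0.28 and Coil, a protein of Cajal bodies, at -0.23.

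Histone chaperones, 21 of 21 measured, had a median of -0.04, with 8 lower (20.6% of all measured genes) and 3 higher (20.4%) beyond spot error. Ipo4, an importin that carries histones, was lowest at -0.24, followed by the H3 and H4 chaperone Asf1a at -0.20. Its paralog Asf1b differed by -0.11, Nasp, which holds H3 and H4 reserves, by -0.09 and Chaf1a, of the replication-coupled assembly factor, by 0.07. Ubn1, of a replication-independent assembly complex, differed by 0.10 and Mms22l, a replication fork repair protein, by 0.16. None was at least 20% lower or at least 25% higher.

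DNA replication and S-phase genes, 41 of 41 measured, had a median of -0.07, and 31 lay below the median gene. Beyond spot error, 17 were lower (20.6% of all measured genes) and 4 higher (20.4%). Prim1, the small primase subunit, had signals of 15322 with S180 and 24248 with DMSO, a difference of -0.38, and was the only one at least 20% lower. Cdc7, a kinase that fires origins, differed by -0.25. Mcm2, of the replicative helicase, and Ccna2, the S-phase cyclin, differed by -0.08 each, the dim cyclin gene Ccne2 by -0.13 and the sliding clamp Pcna by 0.03. Mcm7, also of the helicase, was highest at 0.27, followed by Rrm2, a ribonucleotide reductase subunit, at 0.18. The members' median of -0.19 lay below the medians of all 4 lists, but their spread overlapped with each of them.

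**Figure D5:**
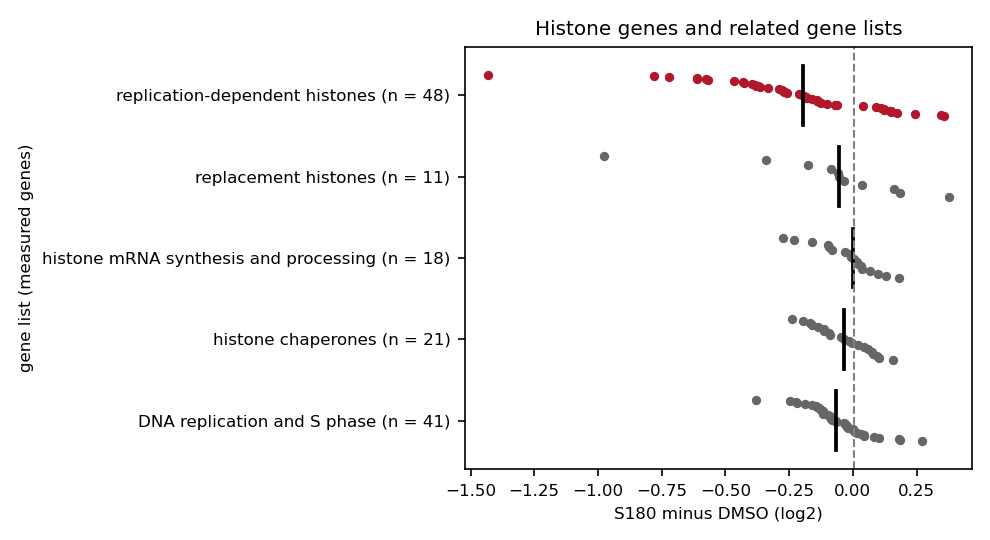
Difference, S180 minus DMSO on the log2 scale after 75th-percentile scaling (horizontal axis), of the replication-dependent histone genes and of 4 lists of related genes, 1 row per list with points sorted by value and a bar at the median. The dashed line is the median of all measured genes. The medians are -0.19 for the 48 histone genes and -0.06, 0.00, -0.04 and -0.07 for the lists below them in the plot.

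Markers of cell types were read from the same arrays. All 7 melanocyte markers were measured, with a summed signal of 800049 with S180 and 868102 with DMSO and differences of -0.12 to 0.26. The melanocyte markers were bright on both arrays, with signals of at least 4651 with S180 and 5683 with DMSO. Of 7 fibroblast markers 6 were measured, with a summed signal of 1698 with S180 and 2893 with DMSO, and all 6 lay below the median gene, at a median of -0.43. Col3a1 was not well above background on either array. Of 6 epithelial markers 3 were measured, summing to 76.6 with S180 and 126 with DMSO, and Krt5, Krt8 and Krt18 were not well above background on either. Of 7 leukocyte markers 6 were measured, summing to 6723 with S180 and 7404 with DMSO, without Spi1. The part of other cells in the histone differences was not tested.

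The 8 listed genes that were not measured had signals of 2.63 to 9.87 with S180 and 3.30 to 16.4 with DMSO. They were Hist1h2ac, Hist1h2ad and Hist1h2al of H2a, Hist1h2bp, Hist1h2bq and Hist3h2bb-ps of H2b, Hist1h3i and Hist1h4m. No member was well above background on 1 array only, so no fold rests on a bound.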

How the data were processed

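Total RNA of mouse cells was extracted with a mirVana kit and labelled with Cy3 from 0.2 µg by linear amplification, per the labels' protocols. The deposited spot intensities are output of Agilent Feature Extraction 10.7.1.1, per the file headers and the submitters' processing notes; the processed intensity is background-subtracted and not normalized between arrays. A deposited log2 table, for which the sources used here state no method, served as an alternative.

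Control spots and outlier-flagged spots were left out, 120 with S180 and 195 with DMSO. Log2 processed signals were averaged over spots of a probe and the array's 75th percentile was subtracted. A gene was its brightest probe well above background on both arrays. Names are those in the files; current symbols came from RefSeq (GRCm38.p6) for all 48 measured members. No test was made, with 1 array per group. Named were, per class, the 3 lowest, 2 highest and brightest genes, both clusters Hist3 and Hist4, and fixed genes with the 2 lowest and 2 highest of each list. Some of these are given by their difference alone. The members, lists and rules were chosen with earlier results of these data known. Alternatives covered scaling, background, probe choice, filters, naming and thresholds. Python 3.11.15 (pandas 2.3.3, numpy 2.4.6) and R 4.3.3 with limma 3.58.1 were used, and the scripts were tested on simulated data.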

Additional observations from a re-analysis of the deposited data

How the results depend on the processing

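Relative to the median gene, the members, the 5 classes and both large clusters kept their direction under every alternative; the histone mRNA list (-0.05 to 0.03) and the neighbours of Hist1 (-0.05 to 0.00) lay on both sides of it. The members' median relative to the median gene kept its direction and size under all 14 alternatives, from -0.26 to -0.17. Spike-in scaling, no scaling and scaling to the median of measured genes shift a whole array. They therefore could not change this value, nor those of the classes and clusters relative to the median gene. The deposited values gave -0.2585 and quantile normalization -0.2589, so these are hardly separate checks. The members' unshifted median difference, -0.19 in the report, was -0.28 after quantile normalization, -0.28 from the deposited values, -0.55 with scaling to 8 spike-in transcripts and -0.48 without scaling. The count of members at least 1.5-fold lower, 5 in the report, was 22 with spike-in scaling, 16 without scaling, 3 among the upper 50% of genes by mean signal, 3 with members named by RefSeq accession (43 measured of 48) and 0 in the brightest group; it was 16 where a 20% lower signal was enough and 1 at 2-fold. Relative to the median gene, H2a stood at -0.29 after quantile normalization and at -0.29 from the deposited values, and H4 at 0.023 and 0.018 under those settings and at 0.039 as a mean. H2b was -0.20 and Hist2 -0.017 with normexp background correction. Hist1 was -0.185 with no background flag needed and -0.195 in the brightest group. H3 was -0.26 in the upper 50% and -0.26 in the brightest group. H1 was -0.54 by RefSeq accession and -0.37 in the brightest group, where it is 1 gene. The genes known from testis were -0.30 in the upper 50% and -0.68 as a mean. The causes were not tested. The brightest-group values, those without the genes known from testis the Hist1 span ending before the distant Hist1h2al and the placings of Hist1h2ag were chosen after seeing the data. No paired analysis was possible because each group is 1 array, and for the same reason no array could be left out. Signal over background limits the dim members, whose spot error is 0.268.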
